A study of Homo sapiens with 18 samples.

Results

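The effect of WWOX was examined within 1 bladder cancer cell line, CAL-29, by CAGE-seq, in which reads begin at the cap of an RNA and so count the transcripts that start at each gene. CAL-29 is an established line of urinary bladder carcinoma. Of the 18 libraries of the series (6 variants in each of 3 cell lines), the 5 compared here were CAL-29 WK, WA and WC, which received WWOX, and CAL-29 KK and KA, which received the blank control in its place. All variants had passed through 2 lentiviral transductions, each followed by antibiotic selection. In the first, the W variants received WWOX from the pLenti-GIII-CMV-GFP-2A-Puro vector and the K variants a blank control virus. In the second, KK and WK received a blank control virus, KA and WA received AP-2α from the pLKO-Neo-CMV vector, and WC received AP-2γ from the same kind of vector. Each variant was a stable transductant with 1 library, so that WK against KK and WA against KA are single pairs of libraries that share no library, and only the 3 W and 2 K libraries together gave replicates, which also differ in their second transduction. The sixth CAL-29 library, labelled KC (blank control, then AP-2γ), was left out because its profile was that of the HT-1376 line, so WC had no control with AP-2γ and the effects of WWOX and AP-2γ in WC cannot be told apart.

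WWOX encodes a WW domain-containing oxidoreductase and spans a common fragile site that is often lost in carcinomas, where it is regarded as a tumor suppressor. Through its WW domains it binds proteins with a PPxY motif, among them the transcription factors AP-2α (TFAP2A) and AP-2γ (TFAP2C), and can hold them outside the nucleus. AP-2 factors bind a GC-rich palindrome and are active in epithelia, the urothelium included.

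The 5 libraries held 16773240 to 17292683 reads on genes, and a single read was worth 0.0545 to 0.0562 CPM, the read count scaled to the same total in each library. A gene with fewer than 3 reads (0.164 to 0.169 CPM) cannot be told from one without reads, a limit that covers counting error only. Of 16575 genes, 12078 had at least 5 CPM in at least 1 of the 5 libraries, and these were analyzed as log2(CPM + 0.5), a scale on which differences of low genes are understated. At that threshold ZNF816 lay just inside with a highest value of 5.02 CPM and CEP19 just outside with 4.99 CPM. Of 68 genes that were at 20 CPM or more in KK of CAL-29 and under 0.5 CPM in KK of both other lines, 56 to 65 were at 10% or more of the KK level in KA, WK, WA and WC, against 7 in the library labelled KC. Of 47 genes selected in the same way for HT-1376, at most 1 reached 10% of its HT-1376 level in the 5 libraries and 46 did in the library labelled KC. Keratins and adhesion genes of epithelial cells were abundant in all 5 libraries, with KRT7 at 312.14 to 566.85 CPM and CDH1 at 271.70 to 831.05 CPM. Of 22 markers of blood, endothelial and stromal cells, 5 were listed and only CD68 passed the filter.

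WWOX itself (chromosome 16, 78099400 to 79212667, plus strand, GRCh38) measured 63.68 CPM in KK and 51.31 CPM in KA, and at 154.92 CPM in WK, 69.27 CPM in WA and 62.36 CPM in WC. WK stood above both controls by a wide margin and WA by a small one, whereas WC lay between the controls, so the groups overlapped. The W minus K difference was 0.61 (SE 0.44, 3 against 2 libraries, limma), smaller than 2 SE. A transcript from the CMV promoter of a vector need not start where the native gene does, which limits this as a check of the labels. TFAP2A was at 35.43 CPM in KK, 49.88 CPM in KA, 61.66 CPM in WK, 86.67 CPM in WA and 31.71 CPM in WC. TFAP2C was at 87.95, 70.28, 93.09 and 79.85 CPM in KK, KA, WK and WA, and at 338.56 CPM in WC. In both pairs the variant with AP-2α had more TFAP2A than its counterpart with the same first transduction, and WC, the variant with AP-2γ, had the most TFAP2C.

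No gene passed the test of the 3 W against the 2 K libraries. At an adjusted p under 0.05 (limma with Benjamini-Hochberg adjustment), 0 of 12078 genes were higher and 0 were lower (0.0% each way), the smallest adjusted p was 0.9997, and 481 genes (3.98%) had an unadjusted p under 0.05. The edgeR quasi-likelihood test on recovered reads also called 0 genes, with 609 at an unadjusted p under 0.05, and limma-voom called 0. DESeq2 called 46 higher and 25 lower. With the spread of each gene estimated over 17 libraries of the 3 cell lines instead of the 5 of CAL-29, limma called 73 higher (0.604%) and 55 lower (0.455%), and the adjusted p of that fit is given beside single genes as the shared spread. A gene without transcripts in RT-112 and HT-1376 has almost no spread there, which narrows its SE in that fit, and 14 of the 73 and 9 of the 55 were under 1 CPM in all 12 libraries of these lines, against 1.60% of all genes. No p of the shared spread is given for such a gene. The SE of expressed genes also differed between the fits, as in EFNB1 (0.17 shared, 0.29 within CAL-29) and KRT19 (0.57 and 0.39). The p of the shared spread thus measures the spread over the 3 cell lines and not that within CAL-29 alone. All 3 W libraries lay above both K libraries in 1087 genes (9.0%) and below both in 1178 genes (9.75%). Nothing states that the variants came from separate cultures, so the p-values measure only the spread between these libraries.

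The libraries were not ordered by WWOX. Across genes the correlation was highest between KK and WA (r = 0.951), which differ in both transductions, and next highest between KA and WC (r = 0.934), whereas KK and WK, which differ only in WWOX, correlated at 0.865. The SD of the log2 difference was 0.57 between KK and WA, 0.97 between KK and WK and 0.81 between KA and WA. Every pair of the 5 libraries differed by more than sampling noise, with a chi-square per degree of freedom of at least 52.2, so none was a copy of another.

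The pairs ran in opposite directions more often than together. In WK/KK, 977 genes (8.09%) were at least 2-fold higher and 2050 (17%) at least 2-fold lower, and in WA/KA 2837 (23.5%) were higher and 306 (2.53%) lower. After TMM scaling, which equalizes the bulk of genes, these counts were 1263 and 1535 in WK/KK and 1682 and 809 in WA/KA, so the shares of all genes given beside the lists below depend on the scaling. The median difference over all genes was −0.17 in WK/KK, 0.33 in WA/KA and −0.39 in WC against the mean of KK and KA, and after TMM scaling it was −0.01, −0.04 and −0.03. Over the 12078 genes, which are not independent replicates, the correlation of the pairs was −0.17, also after TMM scaling, and 41.9% of genes had the same sign. The same pairs in RT-112 had a correlation of 0.18 with 53.9% of the same sign, and in HT-1376 0.74 with 75.2%. Genes at least 2-fold lower in WK/KK and 2-fold higher in WA/KA numbered 943 (7.81%), and 44 (0.364%) did the reverse. After TMM scaling they numbered 481 and 123.

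**Figure D1:**
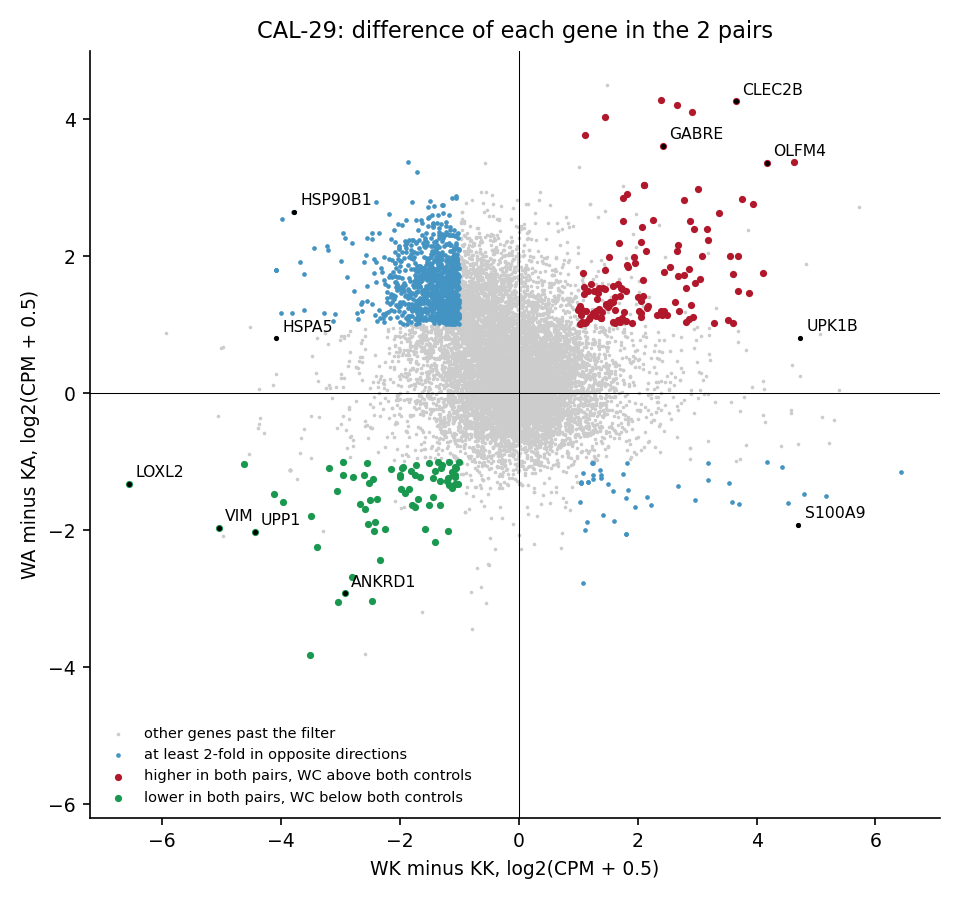
Difference of each gene (points, 12064 genes with a symbol) in WK minus KK (x axis) and in WA minus KA (y axis), both on the log2(CPM + 0.5) scale. The 129 genes higher and 73 genes lower in both pairs with WC on the same side are in red and green, and the 943 and 44 genes at least 2-fold apart in opposite directions are in blue, most of them at the upper left.

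Few genes differed the same way in both pairs. At least 2-fold higher in both were 199 genes (1.65%), of which WC lay above both controls in 129 (64.8%), between them in 43 and below both in 27. At least 2-fold lower in both were 92 genes (0.762%), of which WC lay below both controls in 73 (79.3%), between them in 16 and above both in 3. The 129 genes (1.07% of all) and 73 genes (0.604%) are described below as the genes that agree over the 3 W libraries. Of all genes, WC lay above both controls in 20.7% and below both in 54.3%, and WC is set against the same controls as the pairs, so the shares of agreement cannot be compared between the directions. This is a description of 5 libraries and not a test. By the shared spread 50 of the 129 and 34 of the 73 passed, against 0.604% higher and 0.455% lower of all genes. Of the 50 and 34, 13 and 8 were under 1 CPM in every library of the other lines. With DESeq2, which called 46 higher and 25 lower over all genes, 43 and 21 passed. The CAL-29 values that chose these genes also enter both tests, so the counts are a description. Among the 129, WK was the highest of the 3 W libraries in 101, and 65 were under 20 CPM in all 5 libraries. A pair of neighbors with overlapping starts can carry the same reads, as with STON1 and STON1-GTF2A1L, whose values were identical in the 5 libraries.

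OLFM4, a secreted glycoprotein of mucosal epithelia (olfactomedin 4; chromosome 13, 53028813 to 53052057, plus strand), measured 1.23 CPM in KK and 5.36 CPM in KA, and at 30.66 CPM in WK, 60.00 CPM in WA and 12.20 CPM in WC. All 3 W libraries were above both controls, with WC nearest to them. Its W minus K difference was 3.18 (SE 0.80) and did not pass the test within CAL-29 (adjusted p = 0.9997, limma). In RT-112 and HT-1376 it was at or under 0.34 CPM in every library. The 150 bases before its start (RefSeq, GRCh38.p14, chr13:53028663-53028812, plus strand, 5′ to 3′) are shown because OLFM4 is the gene that, with WWOX, marks this comparison. Matches on either strand to the AP-2 motif GCCNNNGGC, the TEAD motif GGAATG and the AP-1 motif TGANTCA, and on the plus strand to TATAAA, were searched, and the capitals mark the 1 match found, to AP-1.
OLFM4: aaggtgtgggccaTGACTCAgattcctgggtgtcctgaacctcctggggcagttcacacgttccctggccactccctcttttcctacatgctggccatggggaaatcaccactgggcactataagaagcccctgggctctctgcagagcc

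Other genes higher in WK, WA and WC had low levels in both controls. CLEC2B, a C-type lectin that is a ligand of an activating receptor of natural killer cells, measured 2.35 CPM in KK and 0.33 CPM in KA, and at 35.41, 15.49 and 19.06 CPM in WK, WA and WC. CPA6, a secreted carboxypeptidase, was at 0.39 and 0.28 CPM in the controls and at 21.49, 7.58 and 7.14 CPM in WK, WA and WC. HSPB3, a small heat shock protein, was at 0.06 and 0.11 CPM in the controls, under the limit of 3 reads, and at 4.03, 4.31 and 9.67 CPM in WK, WA and WC. The differences of these 3 genes were 3.86 (SE 0.68), 3.73 (SE 0.67) and 3.37 (SE 0.68), and their controls and W libraries did not overlap. DNAJC22, a J-domain protein, varied little within the groups, at 1.07 and 1.00 CPM in the controls and 10.28, 10.09 and 10.91 CPM in WK, WA and WC.

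ANGPTL2, a secreted angiopoietin-like protein, was at 3.87 and 2.93 CPM in KK and KA and at 66.24, 22.80 and 13.38 CPM in WK, WA and WC. GABRE, a subunit of GABA-A receptors, was at 10.26 and 3.70 CPM in the controls and at 57.51, 50.94 and 26.32 CPM in WK, WA and WC. CHL1, a cell adhesion molecule of the L1 family, was at 2.69 and 0.50 CPM in the controls and at 19.72, 17.94 and 8.10 CPM in the W libraries. In all 3 genes WC was the lowest of the W libraries and still above both controls. The same order held for SNCAIP, which encodes the synuclein-binding protein synphilin-1, with 61.44, 15.71 and 7.65 CPM in WK, WA and WC against 4.09 and 1.77 CPM in the controls. TMPRSS11E, a membrane-anchored serine protease of squamous epithelia, CLCA2, a membrane protein of stratified epithelia, and the long noncoding RNA AFAP1-AS1 completed the 12 genes with the largest smaller pair difference. None of the 12 passed the test within CAL-29. OLFM4, CPA6, HSPB3, SNCAIP, DNAJC22, ANGPTL2 and CHL1 were under 1 CPM in all libraries of RT-112 and HT-1376. Of the other 5, CLEC2B, AFAP1-AS1, TMPRSS11E and GABRE passed by the shared spread in limma, and CLCA2 did not (adjusted p = 0.051).

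Of the 12 genes named among those lower in the W libraries, UPP1, the uridine phosphorylase that breaks down uridine, had the highest level in the controls (chromosome 7, 48088628 to 48108736, plus strand). It measured 792.03 CPM in KK and 859.99 CPM in KA, and at 35.91 CPM in WK, 211.74 CPM in WA and 169.59 CPM in WC. The controls lay close together and every W library was far below them, with a difference of −2.91 (SE 0.73). ALPL, the tissue-nonspecific alkaline phosphatase, was at 6.22 and 4.92 CPM in the controls and at 0.72, 0.16 and 0.17 CPM in WK, WA and WC. NMU, the neuropeptide neuromedin U, was at 54.88 and 57.78 CPM in the controls and at 10.44, 10.25 and 24.85 CPM in the W libraries. GCNT1, a glycosyltransferase that builds branched O-glycans, was at 17.04 and 11.94 CPM against 1.16, 2.13 and 6.52 CPM. For NMU and GCNT1, WC was the closest of the W libraries to the controls.

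MERTK, a receptor tyrosine kinase, was at 33.86 and 12.33 CPM in KK and KA and at 6.69, 2.73 and 0.22 CPM in WK, WA and WC. DKK3, a secreted protein of the Dickkopf family, was at 57.35 and 97.70 CPM in the controls and at 9.50, 25.64 and 35.14 CPM in the W libraries. VIM, the intermediate filament protein of mesenchymal cells, was at 19.73 CPM in KK but 1.88 CPM in KA, and at 0.11, 0.11 and 1.57 CPM in WK, WA and WC. Its gap between KA and WC was small, so the difference of −2.92 (SE 1.11) rested mostly on KK. NT5DC4, LY6E-DT, LINC01270, ANKRD1 and FTLP3 were the other genes named, and FTLP3 is uncertain because it is a pseudogene of FTL and may share its reads. FTL, the ferritin light chain, was itself among the 73 (chosen after its values were seen), at 2073.61 and 2613.21 CPM in the controls and 522.26, 993.63 and 496.84 CPM in WK, WA and WC. Of the 12 lower genes, LINC01270, ALPL and VIM were under 1 CPM in all libraries of the other lines. Of the other 9, 6 passed by the shared spread in limma. ANKRD1 (adjusted p = 0.0785), GCNT1 (0.055) and DKK3 (0.13) did not.

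**Figure D2:**
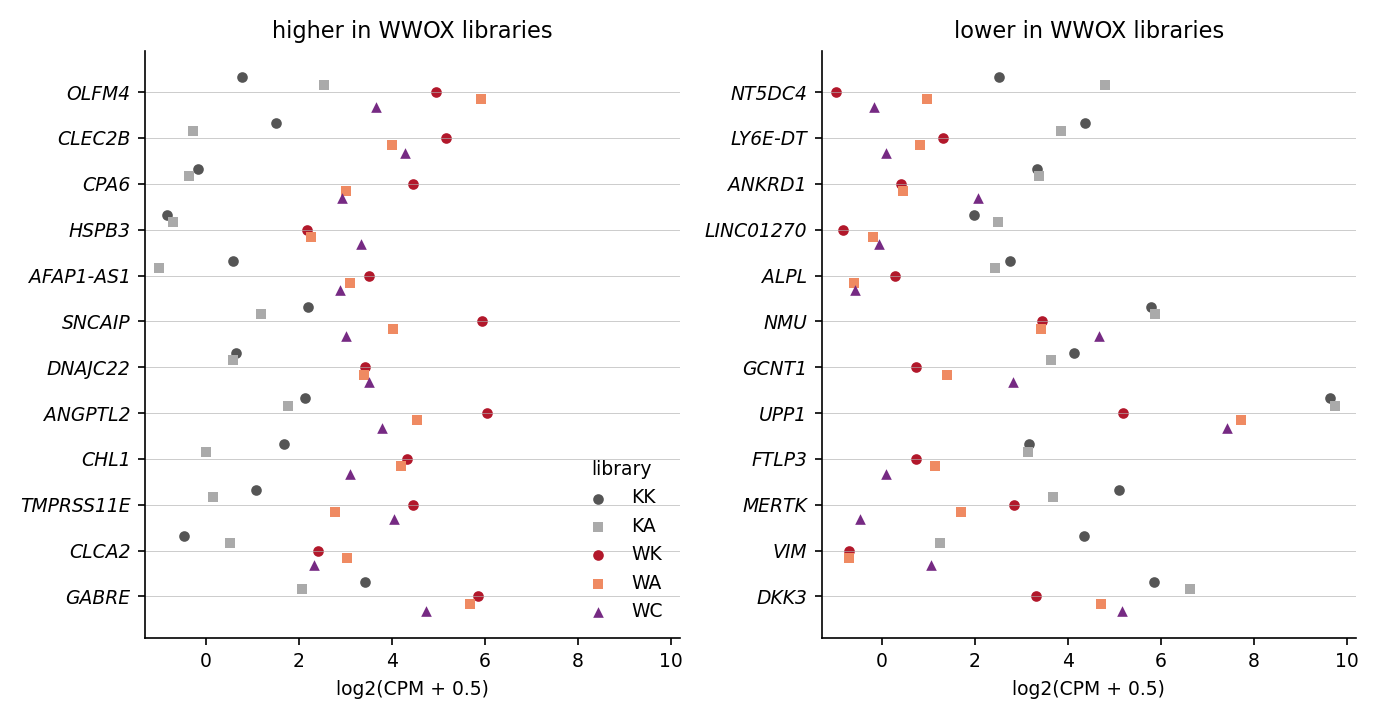
Level of the 24 named genes that agree over WK, WA and WC, as log2(CPM + 0.5) on the x axis, with 1 point for each of the 5 libraries (grey, controls; red, orange and purple, W libraries). In every row the 3 W points lie on one side of both control points, with the narrowest gap for VIM.

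Gene lists are described by counts of the members past the filter, and since a gene low in the controls can pass through a single W library, these counts are descriptions. Genes of luminal urothelial differentiation were mostly higher in WK. Of 25 genes listed, 23 passed the filter, and of these 17 were at least 2-fold higher in WK/KK and 0 lower, against 8.09% and 17% of all genes, and 9 were higher in WA/KA, against 23.5%. After TMM scaling 19 were higher in WK/KK, but only 3 in WA/KA. All 3 W libraries were above both controls in 8 members, against 9.0% of all genes, and below both in 0. UPK1B, a uroplakin of the urothelial surface plaque (chromosome 3), measured 20.57 CPM in KK and 97.65 CPM in KA, and at 560.22, 171.87 and 500.05 CPM in WK, WA and WC. FGFR3, the fibroblast growth factor receptor of luminal papillary tumors, was at 5.44 and 3.04 CPM in the controls and at 37.46, 15.33 and 12.88 CPM in the W libraries. Both passed by the shared spread in limma (adjusted p = 0.038 and 0.011). FGFR3 was at or under 0.97 CPM in every HT-1376 library, so that line added little to its spread. GRHL3, a grainyhead transcription factor of the urothelial barrier, was at 10.94 CPM in WK but 1.58 and 2.25 CPM in WA and WC, over 0.39 and 0.61 CPM in the controls. FABP4, a fatty acid-binding protein, stood at 39.42 CPM in WC and at or under 3.11 CPM in the other libraries. The median difference of the list was 1.55 in WK/KK, 0.81 in WA/KA and −0.11 in WC, and 1.68, 0.44 and 0.26 after TMM scaling.

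Basal and squamous genes were mostly higher in WC and ran both ways in the pairs. Of 27 members, 10 were at least 2-fold higher and 5 lower in WK/KK, against 8.09% and 17% of all genes, and 7 higher and 5 lower in WA/KA, against 23.5% and 2.53%. Their median over 27 members was −0.16 in WK/KK, −0.29 in WA/KA and 1.96 in WC, and WC lay above both controls in 21 members, against 20.7% of all genes. SPRR1B, a precursor of the cornified envelope, was at 0.95 CPM in KK, 31.24 CPM in KA, 2.60 CPM in WK, 92.07 CPM in WA and 635.45 CPM in WC. S100A7, the psoriasin of keratinocytes, was at 1.51, 341.00, 42.38, 200.01 and 1141.68 CPM in the same order. KK had the least of both, by far in S100A7, whereas in SPRR1B WK was also low. KA had more than WK in both genes, so the groups overlapped. KRT13, the keratin of intermediate layers of urothelium and other stratified epithelia, was different in that the controls stood at 1.79 and 1.66 CPM and WK, WA and WC at 29.17, 8.18 and 30.64 CPM, with a difference of 3.17 (SE 0.66). IVL, the envelope protein involucrin, was at 0.28 and 2.49 CPM in the controls and at 8.40, 5.78 and 33.29 CPM in the W libraries. Simple epithelial keratins and adhesion genes (20 members) had 4 with all W libraries above and 2 below, against 9.0% and 9.75% of all genes. After TMM scaling these counts were 0 and 2. ST14, the protease matriptase, was the member that passed by the shared spread (59.31 and 88.08 CPM against 168.78, 113.78 and 244.04 CPM, adjusted p = 0.038).

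Mesenchymal genes were more often lower than higher in the W libraries, most of all in WK. Their median was −1.32 in WK/KK, −0.24 in WA/KA and −0.43 in WC, and −1.15, −0.61 and −0.08 after TMM scaling. WC lay below both controls in 8 members, against 54.3% of all genes, so it showed no excess. Of 32 genes listed, 16 passed the filter, of which 6 had all 3 W libraries below both controls, against 9.75% of all genes, and 1 above. FN1, fibronectin, was at 865.19 and 998.95 CPM in the controls and at 157.46, 420.81 and 32.22 CPM in WK, WA and WC. LOXL2, a lysyl oxidase that cross-links collagen, was at 400.58 and 216.09 CPM in the controls and at 3.76, 86.23 and 134.33 CPM in the W libraries. TNC, the matrix protein tenascin C, was at 178.26 and 210.17 CPM against 8.23, 163.69 and 96.38 CPM. In LOXL2 and TNC the WK library was much lower than WA and WC, and none of the 3 passed by the shared spread (adjusted p = 0.11, 0.19 and 0.56 for FN1, LOXL2 and TNC, limma). Of matrix metalloproteinases and their inhibitors (21 members), 3 were below both controls in all W libraries and 0 above, against 9.75% and 9.0% of all genes. TIMP4 was at 7.40 and 1.66 CPM in the controls and at 0.50, 0.60 and 0.51 CPM in WK, WA and WC. MMP7, SERPINB2 and MMP13 had W minus K differences above 0 (1.92, 1.85 and 1.73), but their groups overlapped. WC lay above both controls in 10 members of this list and below both in 7, against 20.7% and 54.3% of all genes. The median W minus K difference of the list was 0.13, so it had no common direction.

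Genes of the unfolded protein response and of its factor ATF4 split the W libraries. These genes encode chaperones and folding enzymes of the endoplasmic reticulum and enzymes of amino acid supply. HSPA5, the chaperone BiP (chromosome 9), was at 6321.40 CPM in KK, 3902.83 CPM in KA and 6795.30 CPM in WA, and at 372.60 CPM in WK and 406.48 CPM in WC. TRIB3, a pseudokinase induced by ATF4, was at 431.75, 421.95 and 493.08 CPM in KK, KA and WA, and at 55.91 and 36.16 CPM in WK and WC. DNAJB9, a cochaperone of HSPA5, was at 84.76, 45.29 and 81.60 CPM, and at 10.61 and 5.90 CPM. WK and WC were low in each of these genes, whereas WA was above KA. Of 36 members, 31 were at least 2-fold lower in WK/KK, against 17% of all genes, and 0 in WA/KA, against 2.53%. In WC 29 were at least 2-fold lower than the mean of KK and KA, against 19.96% of all genes. The list median was −2.12 in WK/KK, 0.47 in WA/KA and −1.78 in WC, and −1.95, 0.09 and −1.41 after TMM scaling. The W libraries disagreed, and 3 members had all of them below both controls, against 9.75% of all genes. After TMM scaling 7 did, against 9.72%. No member passed by the shared spread.

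HSP90B1, the endoplasmic reticulum chaperone GRP94, was among the genes furthest apart in opposite directions. It measured 2740.30 CPM in KK and 482.06 CPM in KA, and at 198.45, 3029.91 and 242.69 CPM in WK, WA and WC. KK and WA were high and the other 3 libraries low, so the difference was −3.78 in WK/KK and 2.65 in WA/KA. MIR3652 lies within HSP90B1 and had nearly the same values, so the reads of the 2 cannot be told apart. The mitochondrial folate enzyme ALDH1L2 (20.57, 1.99, 0.83, 14.02 and 1.29 CPM in KK, KA, WK, WA and WC) and FNDC3A, a fibronectin type III domain protein (23.49, 3.26, 4.03, 25.47 and 1.91 CPM) were likewise high in KK and WA and low in the other 3 libraries. Without KK, the W minus K difference of all 3 genes changed its sign, from −1.12 to 0.13 in HSP90B1, from −1.15 to 0.39 in ALDH1L2 and from −0.53 to 0.81 in FNDC3A. KK was instead the lowest library in S100A9, a subunit of calprotectin, with 58.58 CPM in KK, 5537.66 CPM in KA, 1538.23 CPM in WK, 1462.38 CPM in WA and 7128.87 CPM in WC. SLPI, a secreted inhibitor of leukocyte proteases, was at 131.73, 796.62, 514.36, 251.50 and 324.61 CPM in the same order. SAA1, an acute-phase protein, shared all its values with the overlapping RNA5SP334 (5.33, 38.48, 19.83, 8.89 and 42.06 CPM).

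The promoters of HSPA5 and HSP90B1 are shown because both hold the endoplasmic reticulum stress response element (CCAAT, a spacer of fixed length, then CCACG), which was searched on both strands of the 250 bases before the start and is in capitals (RefSeq, GRCh38.p14, 5′ to 3′). The windows are chr9:125241344-125241593 on the minus strand and chr12:103930160-103930409 on the plus strand. HSPA5 had 1 exact match and HSP90B1 had 2, 1 of them on the opposite strand. Of the 36 list members, 33 had a promoter in the table and 4 of these held the element (HSPA5, HSP90B1, CRELD2 and XBP1; 12.1%), against 0.138% of the 9395 promoters of genes past the filter and 0.0806% of all 27305 promoters. The list was chosen as genes of this stress response, so its share is no result of these libraries. The element was in 0 of 81 promoters of the 129 higher genes and 0 of 50 of the 73 lower genes. Of genes at least 2-fold lower in WK/KK and 2-fold higher in WA/KA, 3 of 768 promoters held it.
HSPA5: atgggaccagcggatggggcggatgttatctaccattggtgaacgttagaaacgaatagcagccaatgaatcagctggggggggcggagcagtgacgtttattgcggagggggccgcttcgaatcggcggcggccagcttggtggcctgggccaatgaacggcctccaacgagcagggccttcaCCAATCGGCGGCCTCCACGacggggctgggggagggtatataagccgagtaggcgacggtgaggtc
HSP90B1: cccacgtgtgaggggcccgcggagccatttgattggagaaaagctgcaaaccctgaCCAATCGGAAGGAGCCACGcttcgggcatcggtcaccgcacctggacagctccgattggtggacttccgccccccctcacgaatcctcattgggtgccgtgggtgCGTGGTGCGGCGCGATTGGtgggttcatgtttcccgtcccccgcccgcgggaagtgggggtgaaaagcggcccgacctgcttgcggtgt

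**Figure D3:**
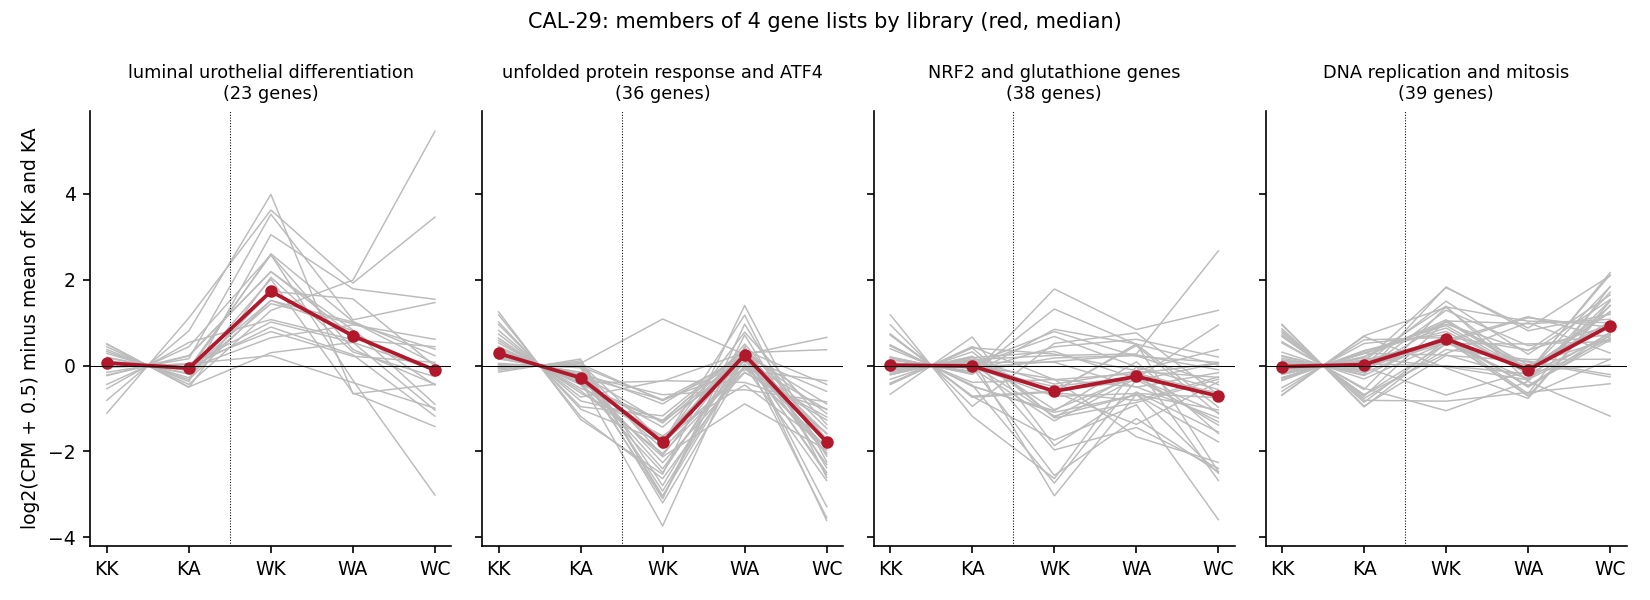
Members of 4 gene lists (grey lines, 1 per gene) in the 5 libraries on the x axis, as log2(CPM + 0.5) minus the mean of KK and KA on the y axis, with the median in red and a dotted line between controls and W libraries. The unfolded protein response genes are low in WK and WC and near the controls in WA, the median of luminal genes is highest in WK, and the median of NRF2 genes is below 0 in all 3 W libraries.

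Genes of NRF2 and glutathione metabolism, which detoxify electrophiles and peroxides, were the list with the largest number of members below both controls. By share, the smaller mesenchymal list was slightly ahead (37.5% against 36.8%). Of 38 members, 14 had all 3 W libraries below both controls, against 9.75% of all genes, and 4 above. The list median was −0.54 in WK/KK, −0.22 in WA/KA and −0.71 in WC as deposited, and −0.37, −0.59 and −0.35 after TMM scaling, so that all 3 were below 0 under both. AKR1C1, an aldo-keto reductase, was at 147.77 and 198.84 CPM in the controls and at 43.54, 62.73 and 32.22 CPM in WK, WA and WC. HMOX1, heme oxygenase, was at 22.09 and 26.98 CPM in the controls and at 2.54, 15.22 and 3.88 CPM in the W libraries. OSGIN1, a growth inhibitor induced by oxidative stress, was at 24.27 and 22.95 CPM against 3.59, 9.76 and 3.82 CPM. For each of these the controls lay close together and the highest W library was below them. AKR1C3 was at 111.55 and 41.08 CPM in the controls and at 20, 35.73 and 5.17 CPM in WK, WA and WC, where WA was close to KA. None of the 38 passed by the shared spread.

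Some genes of glucose uptake and hypoxia were lower in the W libraries. SLC2A1, the glucose transporter GLUT1, was at 684.96 and 651.92 CPM in the controls and at 249.61, 380.66 and 221.26 CPM in WK, WA and WC (difference −1.27, SE 0.32, adjusted p = 0.032 by the shared spread in limma). BNIP3, a mitophagy receptor induced by hypoxia, was at 171.76 and 117.67 CPM against 39.72, 59.67 and 61.40 CPM (adjusted p = 0.038). VEGFA, the vascular growth factor, was at 1332.42 and 647.16 CPM in the controls and at 334.86, 558.86 and 208.05 CPM in the W libraries, with WA near KA. DDIT4, an inhibitor of mTOR signaling, was at 462.19, 190.16, 95.14, 216.65 and 80.30 CPM in KK, KA, WK, WA and WC, so that WA was above KA. Of 34 members, 5 had all W libraries below both controls and 3 above, against 9.75% and 9.0% of all genes, and after TMM scaling 8 were below and 1 above. Genes of cholesterol and fatty acid synthesis (33 members) were at least 2-fold lower in 14 members of WK/KK and 11 of WA/KA, against 17% and 2.53% of all genes. After TMM scaling these counts were 7 and 15. In WC their median was 0.26, and 3 had all W libraries below both controls, against 9.75% of all genes. After TMM scaling 0 did, and 12 were then at least 2-fold higher in WC. FADS1, a fatty acid desaturase, was at 147.82 and 205.92 CPM in the controls and at 46.35, 87.76 and 133.49 CPM in WK, WA and WC.

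Genes of DNA replication and mitosis were mostly higher in WK and WC. Of 39 members, 9 had all 3 W libraries above both controls, against 9.0% of all genes, and 0 below. Their median was 0.62 in WK/KK, −0.10 in WA/KA and 0.93 in WC, so WA did not share in it. MKI67, the proliferation antigen, was at 8.74 and 6.36 CPM in the controls and at 27.85, 13.47 and 17.71 CPM in WK, WA and WC. KIF20A, a kinesin of cytokinesis, was at 10.71 and 12.22 CPM against 41.55, 21.38 and 50.44 CPM. CDK1, the mitotic kinase, was at 19.90 and 8.90 CPM against 35.19, 27.87 and 27.21 CPM. FOXM1, a transcription factor of mitotic genes, was at 12.39, 33.18, 52.87, 18.49 and 89.69 CPM in KK, KA, WK, WA and WC, so that WA lay between the controls. No member passed by the shared spread in limma (adjusted p = 0.068 to 0.35 for these 4).

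Hippo effectors and YAP targets did not differ in a single direction. CCN2, connective tissue growth factor (chromosome 6), was at 1.68 and 1.71 CPM in the controls and at 9.89, 12.27 and 10.12 CPM in WK, WA and WC. ANKRD1, a nuclear ankyrin repeat protein (chromosome 10), was at 9.59 and 9.84 CPM in the controls and at 0.83, 0.87 and 3.71 CPM in the W libraries. Both are known targets of YAP and TEAD factors, and in both the groups were far apart, in opposite directions (2.35, SE 0.46, and −2.37, SE 0.70). VGLL1, a TEAD cofactor, was at 5.49 and 7.19 CPM in the controls and at 42.98, 15.82 and 13.83 CPM in WK, WA and WC. No member passed by the shared spread in limma (adjusted p = 0.052, 0.078 and 0.052 for CCN2, ANKRD1 and VGLL1). Of 31 members, 4 were above and 3 below both controls in all W libraries, against 9.0% and 9.75% of all genes, and 7 and 3 after TMM scaling. The 250 bases before the start of CCN2 (chr6:131951373-131951622) and ANKRD1 (chr10:90921088-90921337), both on the minus strand (RefSeq, GRCh38.p14), are shown because these genes differed in opposite directions although both hold the TEAD motif. Capitals mark GGAATG, searched on both strands, with 3 matches in CCN2 and 2 in ANKRD1.
CCN2: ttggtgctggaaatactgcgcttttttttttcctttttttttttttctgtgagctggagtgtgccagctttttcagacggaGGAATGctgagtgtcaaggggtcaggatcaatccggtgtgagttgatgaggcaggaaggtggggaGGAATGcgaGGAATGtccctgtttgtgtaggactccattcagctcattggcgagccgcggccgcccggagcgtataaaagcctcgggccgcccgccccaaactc
ANKRD1: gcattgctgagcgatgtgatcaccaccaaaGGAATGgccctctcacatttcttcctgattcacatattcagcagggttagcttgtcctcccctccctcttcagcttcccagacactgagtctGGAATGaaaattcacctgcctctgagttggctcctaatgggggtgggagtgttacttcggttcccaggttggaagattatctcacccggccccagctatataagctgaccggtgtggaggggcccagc
This motif was in 11.9% of all 27305 promoters and 9.27% of those of genes past the filter, in 11 of 81 promoters of the 129 higher genes (13.6%) and in 10 of 50 of the 73 lower genes. The AP-2 motif was in 21 of 81 (25.9%) and 13 of 50, against 19.7% of all promoters and 28.5% of those of genes past the filter.

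Among signaling lists, TGF-β, activin and BMP genes had 11 of 38 members with all W libraries above both controls, against 9.0% of all genes, and 1 below. The named members differed among themselves. GDF15, a stress-induced ligand of this family, was at 206.18 and 183.80 CPM in the controls and at 37.02, 129.27 and 10.46 CPM in WK, WA and WC. BMP3, a BMP ligand, was at 0.95 and 0.50 CPM against 8.78, 2.78 and 1.46 CPM. ID2, an inhibitor of helix-loop-helix factors, was at 1.35, 5.86, 31.27, 4.58 and 9.05 CPM in KK, KA, WK, WA and WC, and INHBA, the activin subunit, at 3.81, 15.98, 11.49, 24.82 and 62.98 CPM. In both, the groups overlapped. SMAD3, which carries the signal of TGF-β receptors to the nucleus, was at 58.41 and 80.62 CPM in the controls and at 141.33, 120.43 and 120.67 CPM in the W libraries.

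AP-1 and immediate early genes had 7 of 23 members above both controls in all W libraries and 0 below, against 9.0% and 9.75% of all genes. EGR3 was at 1.01 and 1.38 CPM in the controls and at 4.36, 8.13 and 2.02 CPM in WK, WA and WC, and EGR2 at 2.58 and 1.60 CPM against 8.29, 7.80 and 3.21 CPM. Both are zinc finger factors induced by growth signals, and in both WC was only just above the controls. FOSB, an AP-1 subunit, was at 11.60 and 4.31 CPM against 40.11, 38.84 and 4.05 CPM, so that WC was below both controls. In the FGF, EGF and ERK feedback list, 7 of 27 members were below both controls in all W libraries and 2 above, against 9.75% and 9.0% of all genes, but 4 and 4 after TMM scaling. DUSP4, a phosphatase that limits ERK activity, was at 66.48 and 83.33 CPM in the controls and at 14.75, 55.47 and 20.86 CPM in WK, WA and WC. NRG1, a ligand of ERBB receptors, was at 28.03 and 24.11 CPM against 4.25, 7.15 and 23.28 CPM. EREG, a ligand of the EGF receptor, was at 12.33, 32.68, 0.55, 22.69 and 8.49 CPM in KK, KA, WK, WA and WC.

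CXC chemokines and cytokines were more often higher than lower in WK/KK, but not in WA/KA, and WC lay above both controls in 13 of 25 members, against 20.7% of all genes, and was at least 2-fold higher in 12, against 4.83%. CXCL1 measured 20.35 CPM in KK and 146.81 CPM in KA, and at 497.02, 120.27 and 534.29 CPM in WK, WA and WC. CXCL8 was at 8.46 and 35.00 CPM in the controls and at 76.52, 40.04 and 91.82 CPM in the W libraries, all above both controls. Both attract neutrophils. Of 25 members, 14 were at least 2-fold higher in WK/KK, against 8.09% of all genes, and 2 in WA/KA, against 23.5%. All W libraries were above both controls in 3, against 9.0% of all genes. Of 13 mucosal secreted genes, 1 (OLFM4) had all W libraries above both controls and 2 had all below, against 9.0% and 9.75% of all genes. MUC4, a membrane mucin, was at 99.00 and 63.04 CPM in the controls and at 11.38, 44.40 and 1.97 CPM in WK, WA and WC, and LCN2, the siderophore-binding lipocalin, at 2571.57 and 3184.12 CPM against 2465.08, 1342.05 and 334.17 CPM.

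The remaining lists are given by their counts of members with all W libraries beyond both controls. Over all genes the shares above and below were 9.0% and 9.75%. Counting members above and below, as deposited, there were 1 and 1 of 10 among AP-2 factors, WWOX and cofactors, 2 and 3 of 19 WWOX binding partners, 3 and 4 of 38 interferon-stimulated genes, and 1 and 0 of 21 genes of antigen processing. There were 5 and 3 of 31 WNT genes, 4 and 0 of 26 p53 targets, and 2 and 2 of 12 Eph receptors and ephrins. EFNB1, an ephrin ligand, was among the last, at 24.95 and 22.50 CPM in the controls and 45.80, 55.58 and 57.86 CPM in WK, WA and WC (adjusted p = 0.0042 by the shared spread in limma). FZD8, a WNT receptor, was at 4.20 and 4.31 CPM against 11.82, 9.76 and 17.09 CPM (adjusted p = 0.018). Genes of the signaling scheme drawn by the study had 5 above and 2 below of 42, or 9 and 3 after TMM scaling, and since the study chose them on these samples the count is not independent of the data.

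**Figure D4:**
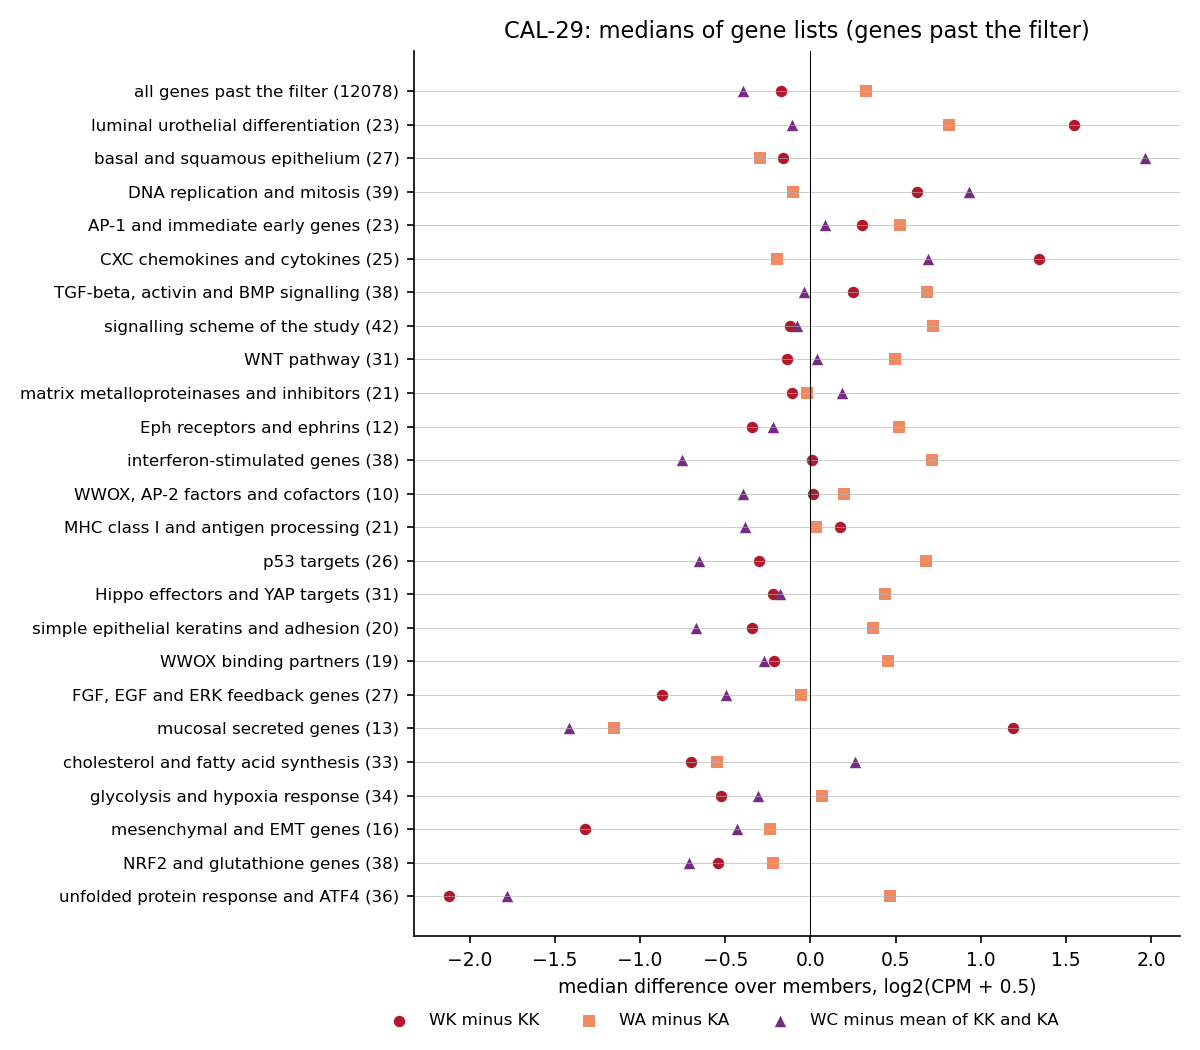
Median difference of the members of each gene list (rows, number of genes past the filter in parentheses, ordered by the W minus K median below the row of all genes) on the log2(CPM + 0.5) scale, with 1 point each for WK minus KK, WA minus KA and WC minus the mean of KK and KA. Unfolded protein response genes lie at −2.12 and −1.78 in WK and WC but 0.47 in WA, and basal genes at 1.96 in WC alone.

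The WWOX difference of CAL-29 was tested against the mean of those of RT-112 and HT-1376 in a fit to 17 libraries. It lay above that of the other lines in 89 genes (0.737%) and below in 94 (0.778%) at an adjusted p under 0.05 (limma). Of the 89 genes 11, and of the 94 genes 6, were under 1 CPM in all 12 libraries of the other lines, so that their difference there was near 0 for want of transcripts. Of the 129 genes higher in both pairs and WC, 46 were among the former, and of the 73 lower genes 36 were among the latter. The CAL-29 values that chose those genes also enter this test, so the overlap is a description. The median W minus K difference of the 129 genes was 1.49 in CAL-29, 0.02 in RT-112 and 0.06 in HT-1376, and that of the 73 genes −1.85, 0.05 and 0.30. In HT-1376, where 955 genes passed the test of W against K in the same fit, 8 of the 129 were called higher and 8 lower, and 9 of the 73 were called higher and 0 lower.

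CPA6, HSPB3 and DNAJC22 were among the 4 genes with the smallest p above, but they were at most at 0.06, 0.05 and 0.55 CPM in RT-112 and HT-1376, so the values show that these lines lacked the transcripts and not how WWOX acts on them there. The same held for OLFM4. VGLL1, at up to 43.88 CPM in RT-112 and 117.51 CPM in HT-1376, differed by 2.86 (SE 0.46, adjusted p = 0.010), since it was higher with WWOX in CAL-29 (1.67) and lower in HT-1376 (−2.34, adjusted p = 0.0014). UPK1B differed by 3.82 (SE 0.76, 0.021), with differences of 3.00 in CAL-29, −0.65 in RT-112 and −0.99 in HT-1376. KRT13 and CCN2 also passed (2.66 and 2.71, adjusted p = 0.015 and 0.0496). Against RT-112 alone VGLL1, UPK1B and CCN2 did not pass (adjusted p = 0.19, 0.077 and 0.20, limma). Against HT-1376 alone they did (0.0016, 0.021 and 0.033). KRT13 passed against RT-112 alone and against HT-1376 alone (0.025 and 0.034). It was at 395.76 to 478.65 CPM in RT-112 but at 0.07 to 1.15 CPM in HT-1376. The values in HT-1376 therefore show mostly a lack of its transcripts and not how WWOX acts on it there.

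In the other direction, LY6E-DT, a divergent transcript beside LY6E, differed by −3.83 (SE 0.49, adjusted p = 0.0025). COX6B2, a testis isoform of a cytochrome c oxidase subunit, differed by −3.82 (SE 0.50, 0.0025), with −2.35 in CAL-29, 1.21 in RT-112 and 1.72 in HT-1376. Its levels were low, at 5.05 and 2.76 CPM in CAL-29 KK and KA and 0.17 to 0.71 CPM in the W libraries. In HT-1376 it was at or under 0.14 CPM in the K libraries and at 1.09 to 1.95 CPM in the W libraries. ALPL and LINC01270, the other two with the smallest p below, were at most at 0.49 and 0.69 CPM in the other lines. UPP1 differed by −3.10 (SE 0.63, 0.024). VEGFA differed by −2.69 (SE 0.48, 0.013), being lower with WWOX in CAL-29 (−1.45) and higher in HT-1376 (1.91, adjusted p = 0.0059). UPP1 and VEGFA did not pass against RT-112 alone (adjusted p = 0.125 and 0.128, limma) but did against HT-1376 alone (0.018 and 0.0049). AKR1C1 and AKR1C3 differed by −3.28 and −3.30 (adjusted p = 0.035 and 0.049), with −0.88 and −0.14 in RT-112 and 3.57 and 2.59 in HT-1376. Against RT-112 alone neither passed (adjusted p = 0.69 and 0.39, limma), and against HT-1376 alone both did (0.0034 and 0.014). FN1, LOXL2 and HSPA5 did not pass (adjusted p = 0.081, 0.39 and 0.34), which does not show that their differences are alike in the 3 lines.

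**Figure D5:**
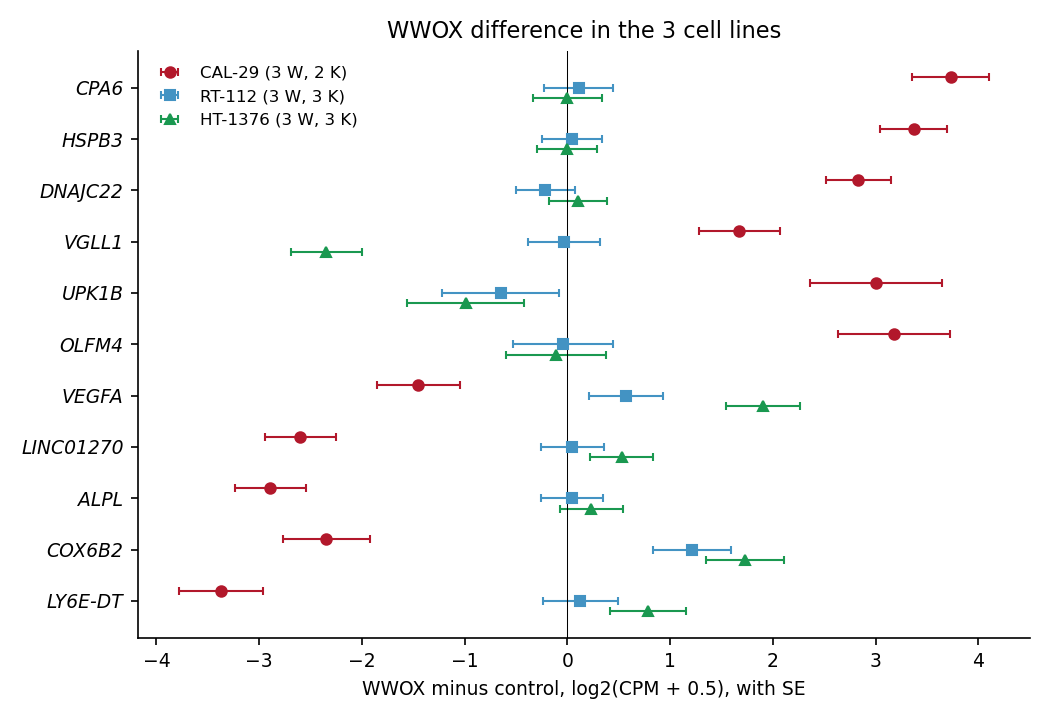
W minus K difference on the log2(CPM + 0.5) scale (x axis) of 11 genes in CAL-29 (3 W and 2 K libraries), RT-112 and HT-1376 (3 and 3 each), with bars of 1 SE from the fit to 17 libraries. CPA6, HSPB3, DNAJC22, OLFM4, ALPL and LINC01270 were under 1 CPM in all RT-112 and HT-1376 libraries, so their points near 0 in these lines show a lack of transcripts. VGLL1, VEGFA and COX6B2 have opposite signs in CAL-29 and HT-1376, but COX6B2 was at or under 1.95 CPM in HT-1376.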

How the data were processed

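CAGE-seq libraries were made from total RNA and sequenced to 75 nt single-end reads. The authors aligned reads to hg38 with BWA and then HISAT2 2.0.5, clustered start sites, and deposited CPM per gene; depth differences are removed in that unit. In the 5 CAL-29 libraries 99.97 to 99.99% of deposited CPM values were whole multiples of 1 read (tolerance 0.0051 CPM), which gave the reads used by edgeR, limma-voom and DESeq2. Groups came from the sample titles. The 3 W and 2 K libraries were compared on log2(CPM + 0.5) over genes that reached 5 CPM in 1 or more of them, with limma 3.58.1 (trended, Benjamini-Hochberg, adjusted p under 0.05, R 4.3.3). The difference between lines was fitted to 17 libraries with a mean for each line and WWOX state. Alternatives used edgeR 4.0.16, DESeq2 1.42.0, TMM and quantile scaling, other pseudocounts, filters and folds, a block for the second transduction, and each library left out. On simulated data of 12078 genes limma recovered 86 of 100 genes changed by 2 on the log2 scale and 5 of 100 changed by 1. The simulated libraries had the same fixed dispersion in every gene and no effect of the second transduction. These counts therefore do not measure what the test could find in the real libraries, and the 0 calls do not show that such changes are absent.

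Named genes were WWOX, OLFM4, TFAP2A and TFAP2C, up to 12 each way among genes at least 2-fold apart in both pairs with WC on the same side of both controls (ranked by the smaller pair difference), up to 4 of each list by the size of the W minus K difference, up to 4 each way by p for the difference between lines, and up to 4 each way of opposite sign in the pairs. Members and lists were chosen with earlier results of these data known. Promoters are RefSeq sequences of GRCh38.p14, and gene positions are from GENCODE 44.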

Additional observations from a re-analysis of the deposited data

Results flagged for a closer look

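The WWOX difference of CAL-29 differed from the mean of those of RT-112 and HT-1376 in a test of that difference (limma, adjusted p under 0.05). It was above in 89 genes and below in 94. The 4 genes with the smallest p in each direction were HSPB3 (3.35), CPA6 (3.68), DNAJC22 (2.89) and VGLL1 (2.86) above, and LY6E-DT (−3.83), COX6B2 (−3.82), ALPL (−3.03) and LINC01270 (−2.89) below, all as log2 differences. Of these, HSPB3, CPA6, DNAJC22, ALPL and LINC01270 were under 1 CPM in every library of the other lines, so for them the difference shows only that the transcripts were lacking there.

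The WWOX difference also differed within CAL-29 between the second transductions. At least 2-fold lower in WK/KK and 2-fold higher in WA/KA were 943 genes, and 44 were the reverse. Each pair is 1 library against 1, so this difference was not tested.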

How the results depend on the processing

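The test of W against K called 0 genes with other pseudocounts and filters, TMM or quantile scaling, each library left out (0 to 0), the sixth library kept, edgeR and limma-voom. It called 46 higher and 25 lower with DESeq2, and 73 and 55 with the spread of 17 libraries. The 129 higher genes became 81 with a pseudocount of 2 CPM, 84 with quantile scaling, 78 with WC at least 2-fold away and 337 at 1.5-fold. The 73 lower genes became 124 without the filter, 122 with quantile scaling and 231 at 1.5-fold. The 183 genes that differed between lines became 329 without the filter, 482 with quantile scaling, 33 against RT-112 alone, 455 against HT-1376 alone, 115 with the second transduction as a block within each line and 71 with edgeR. The cause of these changes was not tested.

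With the second transduction as a block, 0 genes were called in W against K, and the differences of ERAP1 (0.083), RNA5SP334 and SAA1 (−0.13) and FNDC3A (0.19) changed sign. The main fit had no block. Deviations of libraries from their group mean correlated at 0.02 for KK with WK and −0.60 for KA with WA. With 2 K libraries the deviations of KK and KA mirror each other. The −0.60 thus restates the 0.60 of KK with WA, and these values cannot decide whether the libraries should be paired. With each library left out in turn, the range crossed 0 for HIF1A (−2.19 to 0.20), MET (−2.24 to 0.33), OCLN (−1.97 to 0.070), S100A7 (−0.67 to 6.74), BPIFB1 (−0.18 to 2.37), ERAP1 (−1.96 to 0.50), HSP90B1 (−2.39 to 0.13), MIR3652 (−2.40 to 0.12), S100A9 (−1.13 to 5.42), RNA5SP334 and SAA1 (−0.96 to 1.79), SLPI (−1.20 to 1.40), ALDH1L2 (−2.69 to 0.39) and FNDC3A (−1.87 to 0.81). Of 123 named genes, 13 changed sign without KK, 2 without WK and 4 without WC. Depth limits genes under 0.164 to 0.169 CPM, and 1 library per variant limits every comparison.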
